A study of Mus musculus with 4 samples.

Results

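The 9 genes described here encode RNA-binding proteins, chromatin proteins and a transcription factor that are used mainly by embryonic tissues: Lin28a, Lin28b, Trim71, Igf2bp1, Igf2bp2, Igf2bp3, Hmga1, Hmga2 and Mycn. They were chosen by symbol from the table of 24421 genes. All 9 were found and all 9 had enough reads to be kept with 14393 genes in all. Polyadenylated RNA of whole embryos (ICR mice) was sequenced in 4 libraries. E7.5 WT and E8.5 WT were wild-type embryos at embryonic days 7.5 and 8.5, with 1 library each. KO1 and KO2 were the 2 libraries of E8.5 Ddx6 KO embryos, homozygous for the Δ allele, in which the floxed exon 5 of Ddx6 had been removed in the germ line with CAG-Cre, so the loss was not limited to a cell type. Per the study's text each KO library pooled several embryos. KO1 mixed an embryo from before head-fold formation with an embryo that had head folds, whereas KO2 held only embryos from before that stage. The study asked how loss of DDX6, an RNA helicase of mRNA decay and of miRNA-mediated repression, alters transcripts of early embryos.

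LIN28 proteins bind the precursors of let-7 miRNAs and block their maturation, and mature let-7 in turn binds the 3′ UTRs of Lin28a and Lin28b, so the pair form a loop of mutual inhibition. TRIM71, known as LIN41 in worms, is an RNA-binding ubiquitin ligase and a classic let-7 target. IGF2BP1 to IGF2BP3 bind mRNAs, Igf2 mRNA among them, and guard them from decay. HMGA1 and HMGA2 bend AT-rich DNA in chromatin, and MYCN is a Myc family transcription factor of embryonic progenitors. These genes are called oncofetal because embryos and many tumours express them.

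The mature let-7 miRNAs are shown because their seed, bases 2 to 8 counted from the 5′ end, fixes the sites searched for below. The seed is in capitals, and the sequences are from RefSeq (GRCm38.p6). The 9 let-7 family members found, let-7a to let-7g, let-7i and miR-98, had the same seed. The miR-125 and miR-302 families, also expressed in embryonic cells, have other seeds.

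let-7a-5p: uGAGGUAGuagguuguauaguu
let-7d-5p: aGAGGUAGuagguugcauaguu
miR-98-5p: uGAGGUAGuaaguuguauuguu
miR-125a-5p: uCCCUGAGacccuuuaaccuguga
miR-302b-3p: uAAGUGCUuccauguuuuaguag

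A let-7 site was taken as CTACCTC, the letters complementary to the seed, read on the transcript strand of the longest annotated 3′ UTR of a gene (GENCODE M21, GRCm38). An adenine after it makes the 8-base form CTACCTCA. Of 20829 genes with an annotated 3′ UTR, 9.11% held the 7-base form and 3.09% the 8-base form. Among the 9 genes, 8 held at least 1 site and 21 sites were counted in all. Mycn was the exception, with the 6-base form TACCTC alone, which 23.6% of genes held. Lin28b, Trim71, Igf2bp1 and Hmga2 each held 4 sites. Only 12 genes of the annotation (0.0576%) held 4 or more. The members were picked as genes of the let-7 axis, so this number of sites was built into the choice, and a match is a run of letters and not a shown binding site.

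The 4 sites of each of these genes are given below with the 20 bases before them, in capitals where the site matches. In Lin28b, with a 3′ UTR of 4445 bases, they began 36, 2410, 2582 and 3998 bases after the stop codon. All were on chromosome 10, minus strand.

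Lin28b site 1 (chr10:45381022-45381049): ccttcacccgggcgggaagtCTACCTCA
Lin28b site 2 (chr10:45378648-45378675): gtacatatacttgttagtaaCTACCTCt
Lin28b site 3 (chr10:45378476-45378503): attctgtttacagcacatggCTACCTCc
Lin28b site 4 (chr10:45377060-45377087): cttggaaatgatggcaccgaCTACCTCt

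In Trim71, with a 3′ UTR of 5512 bases, all 4 had the 8-base form. They began 166, 262, 3591 and 3617 bases after the stop codon, in a pair near the start and a pair further on. They were on chromosome 9, minus strand.

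Trim71 site 1 (chr9:114512472-114512499): agtacaacattgcctaagtcCTACCTCA
Trim71 site 2 (chr9:114512376-114512403): tgtgaagtgataatttctatCTACCTCA
Trim71 site 3 (chr9:114509047-114509074): ttttgtttagtatggattttCTACCTCA
Trim71 site 4 (chr9:114509021-114509048): caattttggcaaaaagttgtCTACCTCA

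Hmga2, on chromosome 10, minus strand, had a 3′ UTR of 3014 bases with sites 58, 1295, 1733 and 2591 bases after the stop codon. The first alone had the 8-base form.

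Hmga2 site 1 (chr10:120364224-120364251): ggggcgccgacattcaatttCTACCTCA
Hmga2 site 2 (chr10:120362987-120363014): ataatccccactcctcaataCTACCTCt
Hmga2 site 3 (chr10:120362549-120362576): acttcctgatttgcaaggaaCTACCTCc
Hmga2 site 4 (chr10:120361691-120361718): tgtacaatcaaaacacactaCTACCTCt

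Igf2bp1, on chromosome 11, minus strand, had a 3′ UTR of 6337 bases with sites 1715, 4136, 4730 and 5353 bases after the stop codon. It is shown because, with as many sites, its transcript level differed in another way from those of the other three genes.

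Igf2bp1 site 1 (chr11:95961778-95961805): gcagtgctgtgcgaagtaaaCTACCTCA
Igf2bp1 site 2 (chr11:95959357-95959384): ggaaccagcagtgctattaaCTACCTCA
Igf2bp1 site 3 (chr11:95958763-95958790): tacgagtataaatggatgaaCTACCTCA
Igf2bp1 site 4 (chr11:95958140-95958167): gtttcacttttggttttaatCTACCTCt

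Lin28a held 2 sites, both of 8 bases, and Igf2bp2, Igf2bp3 and Hmga1 held 1 each. A match to the miR-125 seed (CTCAGGG, in 13.2% of genes) stood once each in Lin28a, Lin28b, Trim71 and Igf2bp3. A match to the miR-302 seed (AGCACTT, in 14.8% of genes) stood once each in Lin28b, Trim71, Igf2bp1 and Mycn. The map of seed matches shows where they lie.

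**Figure D1:**
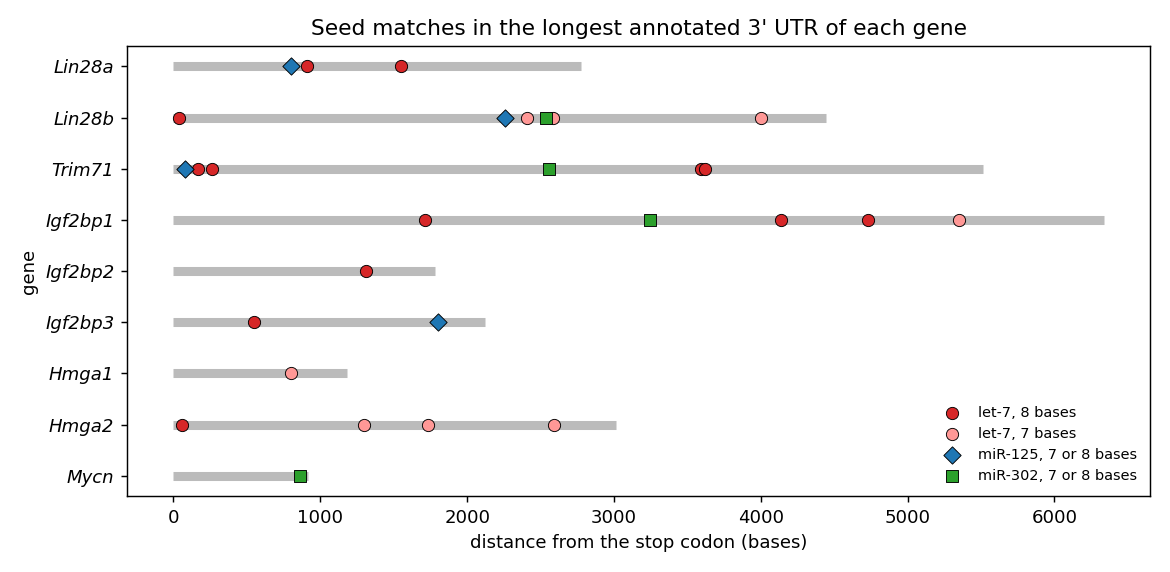
Seed matches along the longest annotated 3′ UTR of each of the 9 genes. The x axis is the distance from the stop codon in bases, grey bars are the 3′ UTRs, circles are let-7 sites (dark, 8 bases; pale, 7 bases), diamonds miR-125 and squares miR-302 matches. Lin28b, Trim71, Igf2bp1 and Hmga2 carry 4 let-7 sites each and Mycn carries none.

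Library totals lay between 8198402 counts (KO1) and 12562640 (E8.5 WT), and from 16511 to 17112 genes had a count. Ddx6, the targeted gene, had 2943 reads in WT at E7.5 and 5715 at E8.5, but 706 in KO1 and 929 in KO2, a mean log2 change against E8.5 WT of -2.54 ± 0.10 (SD, n = 2). The makeup of the embryos also differed between libraries. The 10 pluripotent epiblast markers summed to 2240 CPM (reads relative to the library total, with TMM factors) in WT at E7.5 and 693 at E8.5. They summed to 832 in KO1 and 3327 in KO2, with none at 0. Dnmt3b (18206, 5529, 4802 and 28440 reads in that order) held most of these reads in each library. In KO2 against KO1, 8 of the 10 were called higher, as were 5.99% of all genes. Esrrb (532, 37, 22 and 33 reads) and Zfp42 (145, 12, 6 and 38 reads) were far lower outside E7.5 WT. Sox2 (607, 1322, 473 and 1174 reads) was highest in E8.5 WT. The 10 paraxial mesoderm and heart markers summed to 105, 369, 290 and 116 CPM in the same order, with none at 0. The 10 neural plate markers summed to 48.5, 177, 88.5 and 32.9 CPM, with Wnt1 at 0 in E7.5 WT and KO2 and Olig2 at 0 in both KO libraries. By both of these sums KO2 stood near E7.5 WT and KO1 between the WT stages, but single genes weighed on them. Mesp1 (570, 52, 52 and 741 reads) went against most of the mesoderm and heart list. Tnnt2 (3, 347, 180 and 69 reads) was higher in KO2 than in E7.5 WT. Sox3 (490, 731, 319 and 235 reads) held most neural plate reads of E7.5 WT and KO2. Sox1 and En1 of that list were called higher than E7.5 WT in both KO libraries, as were 6.91% of all genes. Visceral endoderm markers summed to 7281, 7437, 4432 and 4261 CPM and trophoblast markers to 418, 297, 510 and 895 CPM, with Prl3b1 and Tpbpa at 0 in all 4 libraries. Hand1 (2570, 2229, 3544 and 4028 reads) held most of the trophoblast reads in the WT libraries and KO1. Elf5 (795, 3, 3 and 10 reads) and Ascl2 (358, 10, 11 and 54 reads) were far lower outside E7.5 WT. The trophoblast sum therefore does not follow each of its markers. KO2 stood apart in 2 giant-cell genes of that list. It had 4156 reads of Prl3d1 and 1400 of Prl2c2, where no other library had more than 27 reads of either. Cdx2 (990, 1326, 653 and 150 reads) was lowest in KO2. In E8.5 WT, Hand1 and Cdx2 made up nearly all of the 3653 reads of the list. Which tissues the Hand1 and Cdx2 reads came from was not tested. Maternal decidua markers summed to 246, 49.8, 68.1 and 193 CPM, but Wnt6 of that list (299, 247, 215 and 67 reads) was lowest in KO2. Primitive erythroid markers summed to 37.0, 253, 2.98 and 5.66 CPM, with Hbb-y at 0 outside E8.5 WT. Hba-x (1221 reads) and Hbb-bh1 (1579 reads) held most of the erythroid reads of E8.5 WT. Between the WT stages 5 of the 8 were called higher (12.2% of all genes) and 3 lower (7.82%). Those 3 were Gata1 (205, 65, 5 and 12 reads), Alas2 (133, 67, 5 and 43) and Gfi1b (66, 31, 5 and 6). The part of these cell types in the levels of the 9 genes was not tested. In whole embryos, fewer cells of a type and less RNA per cell cannot be told apart. Genotyping used extraembryonic tissue or yolk sac per the study's methods, and how much of these tissues stayed in each library is not stated. For the extraembryonic markers, dissection cannot be told apart either.

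Levels of the 9 genes spanned from the most abundant transcripts to modest ones. On a per-length scale (RPKM, CPM per kilobase of annotated exon), Lin28a was highest, with 251 and 333 in the WT stages, 256 in KO1 and 214 in KO2. It lay between the 99.0 and 99.5 percentile of 13902 genes with a length in each library. Igf2bp1 was the next, at 80.5 to 98.7 RPKM over the 4 libraries. Hmga2 (32.6 to 80.2 RPKM), Igf2bp2 (35.8 to 56.0), Mycn (36.8 to 52.0) and Igf2bp3 (34.4 to 43.7) came next, and their ranges overlapped, so their order was not resolved. Trim71 followed at 10.1 to 21.2 RPKM and Lin28b at 6.92 to 17.9 RPKM, again with overlapping ranges. Hmga1 was lowest at 3.44 to 4.29 RPKM, but 86% of the 50-base windows of its transcripts (1403 of 1632) are not unique to it. Reads that map to several places are left out by the default of the counting program, so the level of Hmga1 is uncertain. For the other 8 genes at most 0.877% of windows were not unique.

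**Figure D2:**
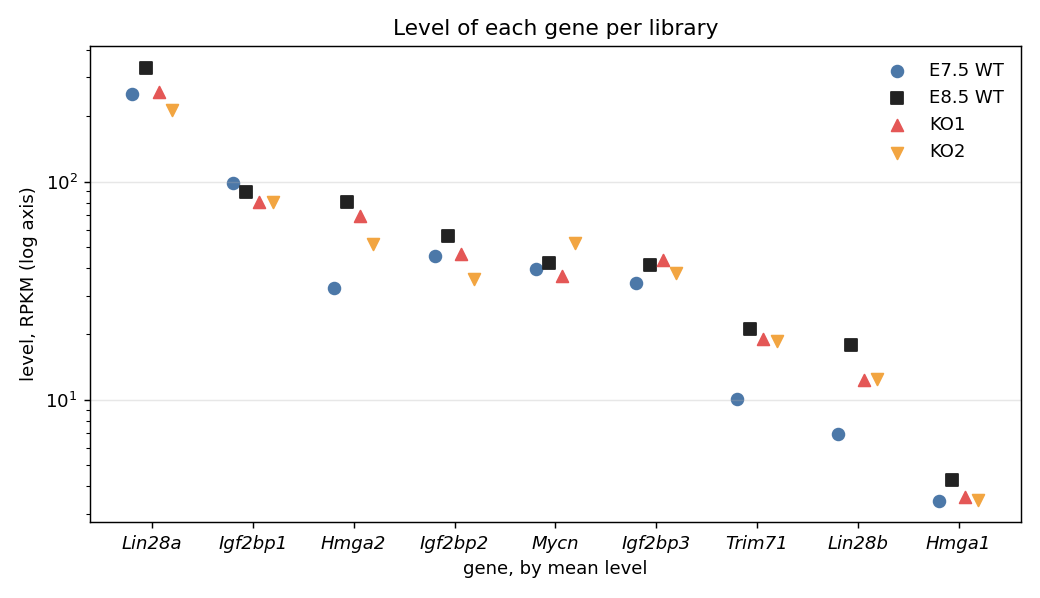
Level of each of the 9 genes in RPKM (log axis), with a point per library, ordered by the mean over the 4 libraries. Lin28a lies at 214 to 333 RPKM in all 4 libraries, and the E7.5 WT points of Hmga2, Trim71 and Lin28b lie below the other 3 libraries.

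The first comparison was between the WT stages. Lin28b, Trim71 and Hmga2 were each more than 2-fold higher in E8.5 WT than in E7.5 WT, whereas the other 6 genes moved by less. Following the study's own cutoff, a gene was called when it moved past 1 or -1 on the log2 scale. Thus 3 of 9 genes were called, all higher, where 20% of all genes kept were called, 12.2% of them higher and 7.82% lower in E8.5 WT, as shares of all genes kept. The threshold call carries no p, and the intervals given with single libraries are exact 95% binomial intervals of the reads, which cover counting error only. With 1 library per stage, a test could take its spread only from the KO libraries. The edgeR test of the stages in a fit of all 4 libraries, chosen after the data were seen, called 0% of all genes and none of the 9, while 21.5% of genes and, of the 9, only Lin28b, Trim71 and Hmga2 had an unadjusted p under 0.05. Their edgeR estimates were 1.37 (SE 0.14), 1.07 (SE 0.13) and 1.30 (SE 0.26), with adjusted p of 0.170, 0.170 and 0.174. By any amount, 8 of the 9 were higher in E8.5 WT, against 49% of all genes, and the interval excluded 0 for 6 of the 8 and for the ninth gene, Igf2bp1, which was lower.

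The second comparison, of the KO libraries with E8.5 WT, found no member past the threshold in both KO libraries, where 5.22% of genes were called (3.44% higher and 1.79% lower). Changes ran from -0.55 to 0.09 in KO1 and from -0.65 to 0.30 in KO2 on the log2 scale. In both KO libraries 7 of the 9 genes lay below E8.5 WT, against 37.6% of all genes, and the median over the 9 was -0.20 in KO1 and -0.30 in KO2, beside -0.01 and -0.00 over all genes. The edgeR quasi-likelihood test, two-sided, with the spread taken from the KO libraries, called none of the 9, with a smallest adjusted p of 0.669. It called 0% of all genes at an adjusted p under 0.05, while 7.22% of them and 2 of the 9 (Lin28a and Lin28b) had an unadjusted p under 0.05. DESeq2 called 0.288% of the genes it tested and none of the 9. With no filter on low counts edgeR called 0.038% and none of the 9.

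The third comparison set the KO libraries against E7.5 WT, since the KO embryos looked younger than their age. It shares the KO libraries with the second. No member passed the threshold in KO1 and KO2 alike, where 9.62% of genes were (6.91% higher and 2.7% lower), although Lin28b, Trim71 and Hmga2 came close, with mean log2 changes of 0.83, 0.89 and 0.88. The edgeR test called 0% of all genes, and 24.5% of them and 3 of the 9 had an unadjusted p under 0.05. DESeq2 called 7.62% of the genes it tested, and Lin28b, Trim71 and Hmga2 were among them. With no filter on low counts edgeR called 4.08%, with Lin28b and Trim71 among them. By any amount, 5 of the 9 lay above E7.5 WT in both KO libraries, against 43.9% of all genes.

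**Figure D3:**
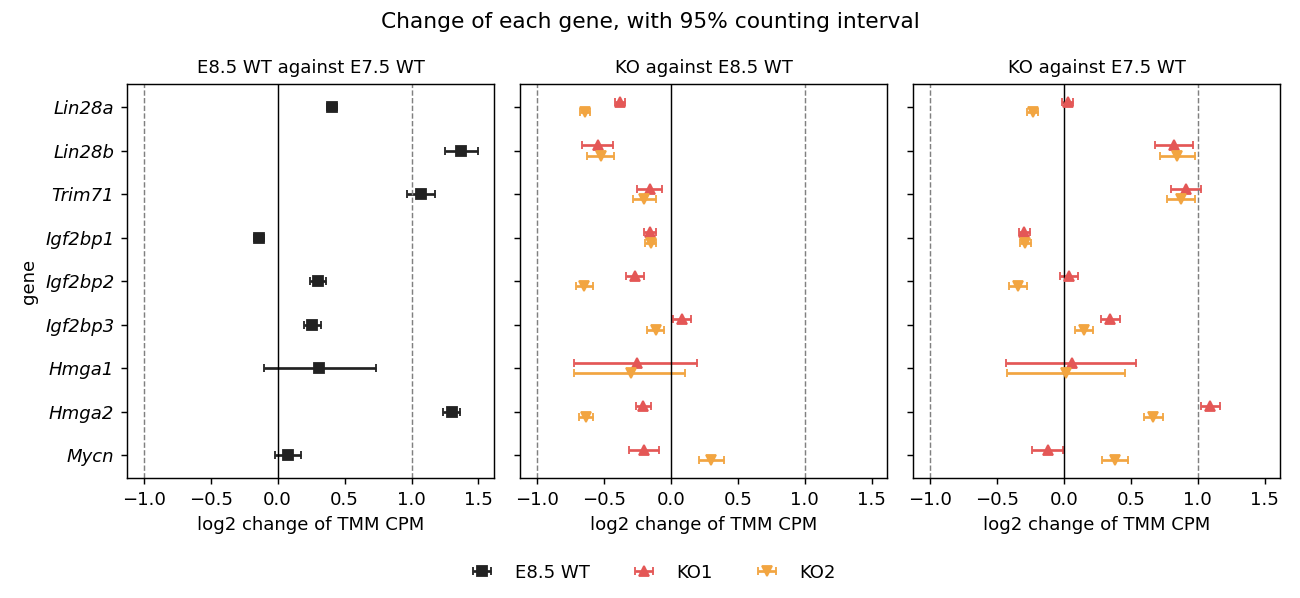
Log2 change of each of the 9 genes in E8.5 WT against E7.5 WT (left), and in KO1 and KO2 against E8.5 WT (middle) and E7.5 WT (right). Points are single libraries, bars are 95% exact counting intervals and dashed lines mark -1 and 1. Lin28b, Trim71 and Hmga2 pass 1 between the WT stages, and Hmga2 in KO1 is the only KO point past 1.

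Lin28b (GRCm38 chr10:45376620-45486395, minus strand) encodes the paralog that sequesters primary let-7 transcripts in the nucleus. It had 746 reads in WT at E7.5, 1992 in WT at E8.5, 932 in KO1 and 1376 in KO2. On the CPM scale both KO libraries lay between the WT stages and close to each other. The log2 change of E8.5 WT over E7.5 WT was 1.37 (1.25 to 1.49), which overlapped that of Hmga2. Against E8.5 WT it was -0.55 (-0.66 to -0.43) in KO1 and -0.52 (-0.62 to -0.42) in KO2, a level 1.46-fold and 1.43-fold lower. The mean was -0.53 ± 0.02 (SD, n = 2), and the difference between the KO libraries, 0.02 (-0.10 to 0.15), was within counting error. The edgeR estimate was -0.53 (SE 0.12, 95% interval -0.86 to -0.20), and its p was 0.0110 before and 0.669 after adjustment. Across the alternative settings the adjusted p ran from 0.473 to 0.999. The upper end came from the fit with both WT libraries as 1 group, which is another contrast. Against E7.5 WT the changes were 0.82 (0.68 to 0.96) in KO1 and 0.85 (0.72 to 0.98) in KO2. There the edgeR estimate was 0.84 (SE 0.13, 0.47 to 1.20), and the p of 0.00308 became 0.129 after adjustment. DESeq2 gave an adjusted p of 0.0377.

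Lin28a (chr4:134003330-134018841, minus strand), the mainly cytoplasmic paralog that recruits the tailing enzyme TUT4 to let-7 precursors, had 11938 reads in WT at E7.5, 16352 in WT at E8.5, 8598 in KO1 and 10402 in KO2. Both KO libraries were below E8.5 WT, KO1 level with E7.5 WT and KO2 under it. Against E8.5 WT the log2 change was -0.38 (-0.42 to -0.34) in KO1 and -0.64 (-0.68 to -0.60) in KO2. The edgeR estimate was -0.50 (SE 0.17, -0.99 to -0.02), and the edgeR p of 0.0451 became 0.669 after adjustment (0.553 to 0.900 over the alternatives). The upper end of these alternatives again came from the fit with both WT libraries as 1 group. Lin28a lacked the step between stages that Lin28b showed, with a change of 0.41 (0.37 to 0.44). The KO libraries differed from each other beyond counting error, at -0.26 (-0.30 to -0.22).

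The makeup of the Lin28 pool needs no scaling between libraries. Lin28b took 5.88% of the reads of both genes in WT at E7.5 (95% exact interval 5.48% to 6.31%), 10.9% in WT at E8.5 (10.4% to 11.3%), 9.78% in KO1 (9.19% to 10.4%) and 11.7% in KO2 (11.1% to 12.3%). The share in both KO libraries was apart from that of E7.5 WT and nearer to that of E8.5 WT. The counting intervals of KO1 (up to 10.39%) and E8.5 WT (from 10.41%) did not overlap, however. Both genes were lower in the KO libraries than in E8.5 WT, so the share does not give the level of either. The KO libraries themselves did not overlap within counting error.

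Trim71 (chr9:114507133-114564369, minus strand) had 1120 reads in WT at E7.5, 2428 in WT at E8.5, 1488 in KO1 and 2101 in KO2. Of the 3 genes called between stages, it was the one whose KO levels lay nearest to E8.5 WT. In KO1, however, its counting interval overlapped that of Hmga2. E8.5 WT exceeded E7.5 WT by 1.07 (0.97 to 1.17) on the log2 scale. Against E8.5 WT the change was -0.16 (-0.25 to -0.06) in KO1 and -0.20 (-0.28 to -0.11) in KO2, a mean of -0.18 ± 0.03 (SD, n = 2). By edgeR the interval of this difference was -0.49 to 0.14. Against E7.5 WT the changes were 0.91 (0.80 to 1.03) and 0.87 (0.77 to 0.98). The edgeR estimate was 0.89 (SE 0.12, 0.55 to 1.23), the edgeR p of 0.00182 became 0.129 after adjustment, and DESeq2 gave an adjusted p of 0.00595.

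Hmga2 (chr10:120361275-120476469, minus strand), an architectural chromatin protein of proliferating embryonic cells, had 2625 reads in WT at E7.5, 6678 in WT at E8.5, 3959 in KO1 and 4271 in KO2. It was past the threshold between the stages, at 1.30 (1.23 to 1.37) on the log2 scale. It differed between the KO libraries beyond counting error, at -0.43 (-0.49 to -0.36) in KO2 against KO1. Against E8.5 WT the changes were -0.20 (-0.26 to -0.15) in KO1 and -0.63 (-0.69 to -0.58) in KO2. Against E7.5 WT they were 1.09 (1.02 to 1.17) and 0.67 (0.60 to 0.74), so that KO1 alone was past the threshold. KO1 also had the higher mesoderm and neural plate marker sums, and the part of those tissues in this difference was not tested. The edgeR estimate against E7.5 WT was 0.90 (SE 0.23, 0.27 to 1.53), the edgeR p of 0.0167 became 0.145 after adjustment, and DESeq2 gave an adjusted p of 0.0103.

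The 3 genes can be set beside all genes that were higher in E8.5 WT. Over all 1759 genes called higher in E8.5 WT than in E7.5 WT, the 3 included, the median log2 change between the stages was 1.54. Their median in KO1 was -0.15 against E8.5 WT and 1.43 against E7.5 WT. In KO2 it was -0.61 and 0.92. Beside these medians Lin28b was lower in KO1, and Trim71 was closer to E8.5 WT in KO2. The 1759 genes, the 3 included, were chosen by their values in these same WT libraries. That choice can by itself lower changes against E8.5 WT and raise those against E7.5 WT. The KO and WT values also share libraries, so they are set side by side without a test.

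For each of these 3 genes, the only members that ranged over more than 1 on the log2 scale, the genes of most similar pattern were sought among the 11221 genes whose counts averaged 50 or more. Likeness was the root mean square difference of centred log2 CPM over the 4 libraries. For Lin28b they were Zfp26 (0.035), Ctdspl2 (0.046) and Tmx3 (0.047). The nearest to Trim71 were Dennd4c (0.0058), Lrrcc1 (0.018) and the Myc network gene Mga (0.025). For Hmga2, Nuak1 (0.015), Mfap2 (0.036) and Sox13 (0.039) came nearest. Across 4 libraries many genes share a pattern, and no p is attached.

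No Igf2bp gene was called in any comparison. Igf2bp1 (chr11:95957163-96005940, minus strand) had 11369 reads in WT at E7.5, 10676 in WT at E8.5, 6547 in KO1 and 9539 in KO2, the order kept for the genes that follow. Its KO levels in CPM differed by less than counting error and lay below both WT stages. Relative to E8.5 WT the log2 changes were -0.16 (-0.20 to -0.11) in KO1 and -0.15 (-0.19 to -0.11) in KO2, and relative to E7.5 WT they were -0.29 in each. The edgeR interval of the difference from E8.5 WT was -0.51 to 0.20. Its 4 let-7 sites, as many as in Lin28b, Trim71 and Hmga2, thus went with a stage change of -0.14 (-0.18 to -0.10) where those 3 genes were called higher.

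Igf2bp2 (chr16:22059009-22163299, minus strand) had 3990, 5092, 2895 and 3225 reads. Its log2 change from E8.5 WT was -0.27 (-0.33 to -0.20) in KO1 and, in KO2, -0.65 (-0.71 to -0.58), an interval that overlapped those of Lin28a and Hmga2 in KO2. The KO libraries did not overlap within counting error, and the edgeR interval of their difference from E8.5 WT was -1.0 to 0.11. Igf2bp3 (chr6:49085223-49214957, minus strand) had 3337, 4131, 2995 and 3791 reads and stood on opposite sides of E8.5 WT in the KO libraries, at 0.09 (0.02 to 0.15) in KO1 and -0.11 (-0.18 to -0.05) in KO2. Its edgeR interval was -0.41 to 0.39.

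Within the Igf2bp pool Igf2bp1 took the most reads in each library, 60.8% in WT at E7.5 (95% exact interval 60.1% to 61.5%), 53.7% in WT at E8.5 (53.0% to 54.3%), 52.6% in KO1 (51.8% to 53.5%) and 57.6% in KO2 (56.9% to 58.4%). The share of Igf2bp2 was 21.3%, 25.6%, 23.3% and 19.5% in the same order. Igf2bp3 took 17.8%, 20.8%, 24.1% and 22.9%, so that its share was higher in both KO libraries than in either WT library. The counting intervals of its KO shares did not overlap those of its WT shares, but 1 library per WT stage leaves the spread between embryos unknown.

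**Figure D4:**
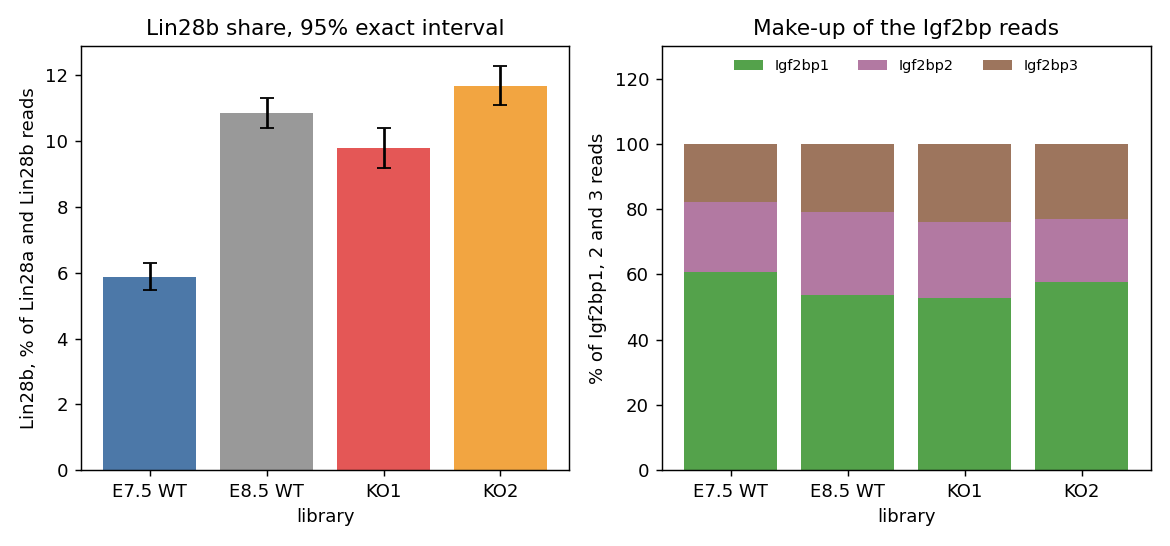
Make-up of the Lin28 and Igf2bp reads per library. The left panel gives Lin28b as a percentage of Lin28a and Lin28b reads with 95% exact binomial intervals (5.88% in E7.5 WT and 9.78% to 11.7% in the other 3 libraries), and the right panel stacks the percentages of Igf2bp1, Igf2bp2 and Igf2bp3 reads.

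Mycn (chr12:12936093-12941914, minus strand) had 1564, 1706, 1017 and 2087 reads and was the only gene of the 9 to stand highest in KO2. It differed little between the WT stages, by 0.08 (-0.02 to 0.18). Against E8.5 WT it was lower in KO1, at -0.20 (-0.31 to -0.08), and higher in KO2, at 0.30 (0.21 to 0.40). The gap between the KO libraries was 0.50 (0.39 to 0.61), the widest of the 9 genes. KO2 also had the highest epiblast marker sum, most of it reads of Dnmt3b, and the part of epiblast in this gap was not tested. By edgeR the interval of the difference from E8.5 WT was -0.62 to 0.77. Hmga1 (chr17:27556497-27563674, plus strand) had 87, 112, 64 and 90 reads, and all its counting intervals spanned 0. At this depth, and with reads that are not unique left out, a difference in Hmga1 was not detectable.

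KO2 and KO1 did not differ past the threshold in any of the 9 genes, where 10.9% of all genes did, 5.99% with more in KO2 and 4.89% with less.

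Mature let-7 was not measured, since the libraries were made from polyadenylated RNA. Rows for 11 Mirlet7 genes were in the table, but 4 had any read, the sums were 8, 11, 5 and 11 reads, and none was kept. The protein factors that process let-7 precursors, or tail them after LIN28 binding, were all measured. None of these 14 passed the threshold in both KO libraries against either WT stage, where 5.22% of all genes did against E8.5 WT and 9.62% against E7.5 WT. The edgeR test called none, but it called 0% of all genes in both comparisons. DESeq2 called 2 against E7.5 WT, where it called 7.62% of all genes it tested, and none against E8.5 WT. Zcchc11, which encodes the uridylating enzyme TUT4, was the only 1 of the 14 called between stages (20% of all genes). It had 730 reads in WT at E7.5, 1759 in WT at E8.5, 1217 in KO1 and 1472 in KO2, a log2 change of 1.22 between the stages, of 0.02 in KO1 and of -0.24 in KO2 relative to E8.5 WT. Dicer1, the enzyme that cuts miRNA precursors, had 2029, 3634, 2516 and 3082 reads and moved by 0.02 in KO1 and -0.23 in KO2 relative to E8.5 WT. Drosha and Dgcr8, the nuclear processing complex, changed by -0.04 and -0.21 in KO1 and by -0.02 and 0.09 in KO2. The median of the 14 was -0.10 in KO1 and -0.14 in KO2.

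Of 25 other genes described as let-7 targets, 24 were kept (Acvr1c was not). Against E8.5 WT none was called in both KO libraries (5.22% of all genes), and the medians were -0.14 in KO1 and -0.27 in KO2. Between the stages 8 were called higher and none lower: Igdcc3, Nr6a1, Prtg, Fign, Tgfbr1, Onecut2, Ccnd2 and Plagl2. Of all genes kept, 12.2% were called higher and 7.82% lower. The list's median was 0.76 where that of all genes was -0.02. Relative to E7.5 WT, Fign, Tgfbr1 and Ccnd2 were called higher in both KO libraries, as were 6.91% of all genes, and the medians of the list were 0.61 in KO1 and 0.41 in KO2. The edgeR test called none of the list in either comparison, but it called 0% of all genes in both. DESeq2 called 4 against E7.5 WT (7.62% of all genes it tested) and none against E8.5 WT (0.288%).

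Ccnd2, a D-type cyclin, had 1397 reads in WT at E7.5, 4602 in WT at E8.5, 3967 in KO1 and 3587 in KO2, with log2 changes of 2.01 and 1.32 in KO1 and KO2 against E7.5 WT. Igdcc3 had 429, 1449, 1110 and 329 reads, so KO1 stood near E8.5 WT and KO2 below E7.5 WT. Prtg, a surface protein of paraxial mesoderm and neural tube, had 4367, 15396, 9472 and 6592 reads. These were the 2 genes of the list called between the KO libraries (10.9% of all genes), with log2 changes of -2.28 and -1.06 in KO2. Nr6a1, a nuclear receptor of the embryo's trunk, had 2880, 7311, 3833 and 3417 reads, at -0.38 (KO1) and -1.08 (KO2) relative to E8.5 WT. Several of these genes are known from neural and mesodermal tissue, whose marker sums were also lower in KO2, and the part of those tissues was not tested.

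**Figure D5:**
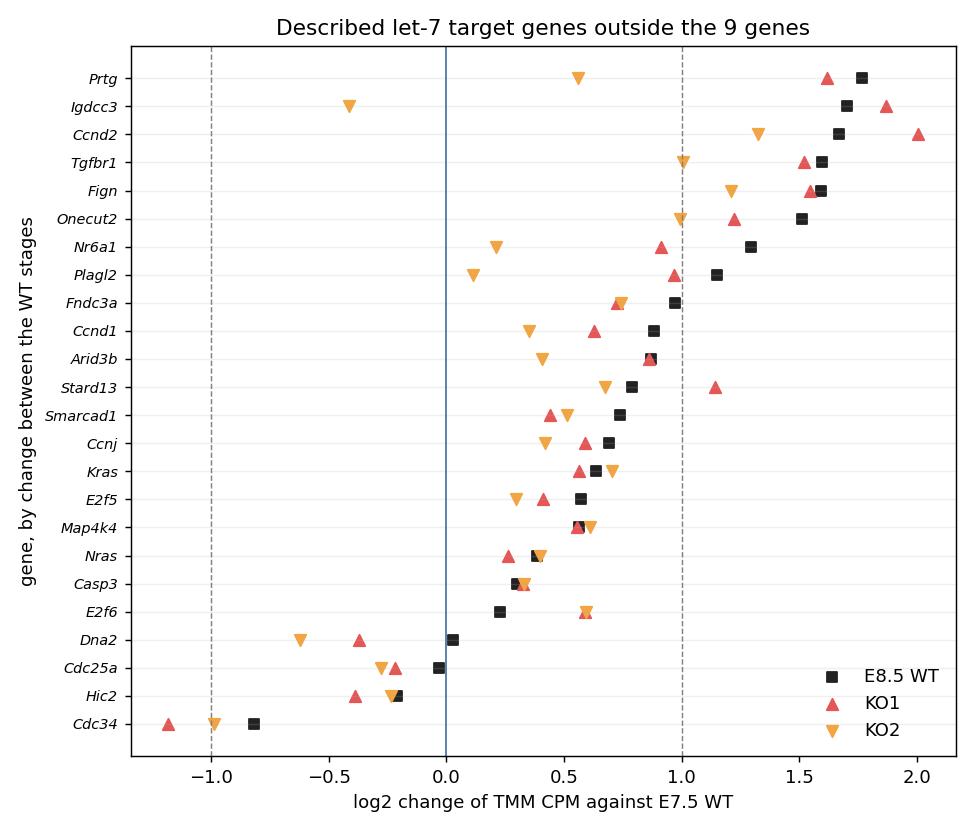
Log2 change against E7.5 WT of the 24 measured let-7 target genes outside the 9, ordered by the change between the WT stages. Squares are E8.5 WT, upward triangles KO1, downward triangles KO2, and dashed lines mark -1 and 1. Igdcc3 and Prtg have the widest gaps between KO1 and KO2.

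The same site search was applied to the 13388 genes kept that had an annotated 3′ UTR. Genes other than the 9 with at least 1 let-7 site (1449 genes) had median log2 changes against E8.5 WT of -0.01 in KO1 and -0.01 in KO2, beside -0.00 and 0.00 in the 11930 genes with no site. With 2 or more sites (174 genes) the medians were -0.01 and -0.03. Genes with and without a site thus had near-equal medians in this comparison. Between the WT stages the medians were 0.14 with a site, 0.31 with 2 or more sites and -0.03 with none. Against E7.5 WT they were 0.18 in KO1 and 0.19 in KO2 with a site, 0.30 and 0.23 with 2 or more, and 0.01 and 0.06 with none. Genes with a site also had longer 3′ UTRs, with a median of 2324 bases against 1088, and the part of length was not tested.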

How the data were processed

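The deposited values are raw counts, 1 column per library, which the authors had not normalized. Per the labels and the study's methods, stranded libraries from polyadenylated RNA were trimmed (Cutadapt 2.8), checked (FastQC 0.11.7), aligned to mm10 (HISAT2 2.1.0, SAMtools 1.9) and counted over exons (featureCounts 2.0.0). Groups came from the sample labels. Nothing in the labels says that the 2 KO libraries came from separate litters, so p-values measure only the spread between these pools.

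The filter kept genes that reached 10 counts in any library. Log2 changes are differences of log2 CPM scaled by TMM factors of the whole table (0.983, 0.978, 1.024 and 1.015 for the WT stages in order, then KO1 and KO2), with a prior count of 2 (edgeR 4.0.16, R 4.3.3). KO calls needed a change above 1 or below -1 in both KO libraries. Quasi-likelihood tests with Benjamini-Hochberg adjustment over all genes kept used the 2 KO libraries and 1 WT library. DESeq2 1.42.0 was the alternative. The functions were tested on simulated data. RPKM used the joined exon length of GENCODE M21. Intervals are exact (Clopper-Pearson) and, as no molecular identifiers were used, cover counting error only. Figures were drawn with matplotlib 3.10.9.

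The members and lists were chosen with earlier results of these data known. Named genes are the 9 members, Ddx6, genes of the lists, Mirlet7 genes and the 3 genes nearest in pattern to each member that ranged over more than 1. A further gene covered by the rule is not reported here. Other settings tried were a prior count of 0.5, no filter or a minimum of 50 counts, scaling by plain CPM or DESeq2 size factors, other samples in the fit, a test of the WT stages with the KO spread (chosen after the data were seen), leaving out each KO library, and other site definitions.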

Additional observations from a re-analysis of the deposited data

How the results depend on the processing

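Among alternatives of the counts of members called, 35 left the count as it was and 4 did not. Against E7.5 WT the edgeR test called none of the 9 genes. DESeq2 called 3 (Lin28b, Trim71 and Hmga2, smallest adjusted p 0.00595), and edgeR with no filter on low counts called 2 (Trim71, adjusted p 0.0293, and Lin28b, 0.0382), where it called 4.08% of all genes and no longer 0%. The cause was not tested. Between the WT stages the threshold called 3 members and the edgeR test of all 4 libraries, added after the data were seen, called 0 (smallest adjusted p 0.170). Members past the threshold against E7.5 WT numbered 0 without KO1 and 1 without KO2 (Hmga2, at 1.09 in KO1). Against E8.5 WT the count without either KO library was 0. The share of all genes called with a single KO library was not computed, so these counts have no background beside them. With both WT libraries as 1 group, which is another contrast, the adjusted p of Lin28b, Trim71 and Hmga2 was 0.999, 0.931 and 0.979. The single-gene changes that were called, those of Lin28b, Trim71 and Hmga2 between the WT stages, moved by at most 0.03 and kept their sign. Signs of some uncalled changes did turn in other settings. These were Lin28a and Igf2bp2 against E7.5 WT, Igf2bp3 against E8.5 WT, Mycn against both stages and Igf2bp1 between the KO libraries. With each single-gene change counted once per setting, 18 values moved by more than the spread between the KO libraries. All of them belonged to Hmga1, Igf2bp1, Lin28b and Trim71. Without leaving out a library, no single-gene change moved by more than 0.06 on the log2 scale. Plain CPM moved the median of all genes in KO2 against E7.5 WT from 0.07 to 0.11. The 6-base site raised the sites of the 9 genes from 21 to 32 and put all 9 among genes with a site, and joining all annotated 3′ UTRs left 21. The edgeR test without a KO library could not be fitted, since no residual degrees of freedom remained. No paired analysis was possible because only the KO group had more than 1 replicate. KO1 had the fewest reads, and Hmga1, with 64 reads there, is the member most limited by depth.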

Other observations

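The insulin-like growth factor genes, whose mRNAs include known IGF2BP clients, were not called in both KO libraries against E8.5 WT in any of 12 measured members, where 5.22% of all genes were. Igf2, the fetal growth factor, had 13186 reads in WT at E7.5, 25505 in WT at E8.5, 20050 in KO1 and 10762 in KO2. KO1 stood above E8.5 WT in CPM, at a log2 change of 0.20, and KO2 below it, at -1.23. H19, the untranslated RNA of the same imprinted locus, had 69631, 52381, 38171 and 38268 reads, with changes of 0.09 and -0.44. Igfbp5, a secreted binding protein, had 803, 3466, 2080 and 774 reads, and its KO2 level was close to that of E7.5 WT. Igf1, Igf2r, Irs1 and Igfbp5 were called higher in E8.5 WT than in E7.5 WT, as were 12.2% of all genes. Between the KO libraries, Igf2, Igf2r and Igfbp5 were called lower in KO2 and Igfbp3 higher, where 10.9% of all genes were called in either direction. The edgeR test and DESeq2 called none of these 12 genes in either KO comparison. Over all genes tested, edgeR called 0% in both, and DESeq2 called 0.288% against E8.5 WT and 7.62% against E7.5 WT.

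All 11 other Myc network genes of the list were kept, and none was called in both KO libraries against E8.5 WT, where 5.22% of all genes were. Myc, the paralog of Mycn, had 1112 reads in WT at E7.5, 898 in WT at E8.5, 262 in KO1 and 521 in KO2. Relative to E8.5 WT it changed by -1.22 in KO1 and by -0.77 in KO2 on the log2 scale, and from E7.5 WT it was -1.58 and -1.13, so it was called lower against the earlier stage. Mxd4, which encodes a MAX partner that opposes MYC, had 92, 136, 184 and 205 reads and was called higher against E7.5 WT, at 1.48 and 1.10. Against E7.5 WT 9.62% of all genes were called in both KO libraries. Mycn itself, at -0.12 and 0.38 against E7.5 WT, did not share the lower level of Myc. The edgeR test called none of the 11, but it called 0% of all genes in both KO comparisons. DESeq2 called 2 against E7.5 WT, where it called 7.62% of all genes it tested. Mga was the only 1 called between the WT stages, where 20% of all genes were.

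Among the 7 measured genes outside the 9 with 4 or more let-7 sites, Nr6a1 had 8 sites and Mcf2l and Nudt12 had 7 each. Their log2 changes between the WT stages were 1.30, 0.84 and 0.41. Trim6, with 6 sites, changed by -0.50. Nr6a1 and Zbtb37, at 1.30 and 1.45, were the 2 of the 7 called higher, beside 12.2% of all genes. None was called in both KO libraries against E8.5 WT (5.22% of all genes). Zbtb37 was the only 1 called against E7.5 WT, at 1.35 in KO1 and 1.16 in KO2 (6.91% of all genes were called higher). These genes were named after their values were seen.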
